A study of Sus scrofa with 4 samples.

Results

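Complement components and factors were followed across 4 spleen microarrays of miniature pigs. The set held 9 genes, C1QA, C1QB, C1QC, C2, C3, C5, C7, CFB and CFD, and was defined by function in the complement cascade. It was chosen with earlier results of these data known. Every probe other than controls that the array names by a pig RefSeq transcript of one of these genes was taken. Of the 9 genes, 8 had such a probe and CFD had none, so CFD was dropped. The 8 genes were read by 14 probes, of 43603 probes on the array and of 3020 genes that could be named. All 14 probes were well above background on at least 1 array and entered the test over 33464 probes. The classical genes were C1QA, C1QB, C1QC and C2, with 5 probes. C3 and CFB were read as the alternative genes, with 6 probes, although C3 is shared by every arm of the cascade and C2 also serves the lectin arm. C5 and C7 were the terminal genes, with 3 probes.

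The arrays held spleen RNA of Minnesota miniature swine. On 3 of them the RNA came from wild-type pigs (WT), and on 1 it came from a pig labelled IL2RG +/-, which the study calls an IL2RG KO pig (KO). IL2RG encodes the common gamma chain, a subunit of the receptors for interleukin 2 and related cytokines. The study cut this gene with TALEN nucleases in cultured donor cells and made the KO pigs from these cells by somatic cell nuclear transfer, so the KO pigs are clones with 1 edited allele, and KO here is 1 array. Age, sex and health at sampling are not given in the array labels, and nothing there says whether the WT arrays came from separate animals, so p-values measure only the spread between these samples. Each array was read in 1 colour. Values are log2 of the processed signal minus the 75th percentile of the array, so 0 stands for that percentile, and a difference is the KO value less the mean of the WT arrays where no other arrays are given. WT means carry the SD of 3 arrays, and KO has no replicate.

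Complement is a set of plasma and cell-surface proteins that tag microbes, immune complexes and dying cells for removal. The classical arm starts when C1q binds an antibody or another target, the lectin arm starts from sugar-binding proteins, and the alternative arm runs on C3 and factor B, and all arms meet at the cleavage of C3. Cleavage of C5 then opens the terminal arm, which builds a pore in the target membrane. Hepatocytes make most plasma complement, whereas C1q comes mainly from macrophages and dendritic cells, and macrophages and stromal cells also make C3, C2 and factor B. The genes of the C1q chains lie next to each other on pig chromosome 6, and C2 and CFB lie next to each other on chromosome 7, in the gene order of the RefSeq annotation of Sscrofa11.1. No probe or gene sequence was used here.

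Spots well above background made up between 66.1% and 72.7% of the spots of an array, and no spot was saturated. WT 1 and KO shared slide 1, and WT 2 and WT 3 shared slide 2. Over the tested probes, which are no independent replicates, arrays of a slide correlated more (Pearson's r of 0.976 on slide 2 and 0.963 on slide 1) than arrays of different slides (0.943 to 0.949). Differences are therefore also given within slide 1, as KO minus WT 1, for the complement genes and the marker lists. The targeted gene was lowest on KO on both of its probes, at -1.98 against -0.64, -1.49 and -1.48 on WT 1, WT 2 and WT 3, and at -3.95 against -1.18, -2.11 and -2.18 on the other, and limma called neither difference (adjusted p = 0.578 and 0.403). Of the genes listed for spleen, 3 could be named and all were measured on every array. VCAM1, an adhesion molecule of splenic stroma, lay between 6.54 and 7.08. CCL21, a chemokine of the T cell zone, read 1.72, 1.08 and 1.36 on the WT arrays and -0.80 on KO, and CCL19, which shares its receptor, read 3.62, 2.53 and 2.54 on the WT arrays and 3.92 on KO. Limma called neither (adjusted p = 0.342 and 0.562). In bulk RNA, fewer cells of a type and less RNA per cell cannot be told apart.

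C1QA, C1QB, C1QC, C2, C3 and CFB, the early components among the 8 genes, were higher in KO than on every WT array. The terminal genes C5 and C7 lay within the WT range. Further complement genes, read below, did not all follow this. MASP2 of the lectin arm and the late component C8G, for example, were below all WT arrays on KO. Of the 8 genes, C2, C3 and CFB stood at least 2-fold above the WT mean, with folds of 8.32, 5.07 and 4.33. They supply the convertases that cleave C3 and C5. The C1q chains were higher by 1.63-fold to 1.99-fold. C5 and C7 gave differences of -1.04 and -0.19. None of the 8 genes was called by limma at an adjusted p under 0.05 with a 2-fold difference, and 0 of all 33464 probes were (0%). At an unadjusted limma p under 0.05, 3 of the 8 genes were higher and 0 lower, where 5.33% of all tested probes were higher and 5.95% lower. A gene or probe was counted as beyond 2-fold where KO was higher, or lower, than each WT array and differed at least 2-fold from the WT mean, which need not be 2-fold from the nearest WT array. KO was beyond 2-fold upward at 3 of 8 genes, against 7.35% of all tested probes and 10.2% of the 8366 probes with the highest mean signal, the brightest 25%. KO was beyond 2-fold downward at 0 of 8 genes, against 11.6% of all tested probes and 3.29% of the brightest 25%. Counted by any size, KO was above all WT arrays at 6 of 8 genes, against 27.0% of all tested probes and 41.1% of the brightest 25%. With 1 KO array, limma assumes that KO varies like WT, and an exact permutation test over the 4 arrays could not give a p below 0.25.

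**Figure D1:**
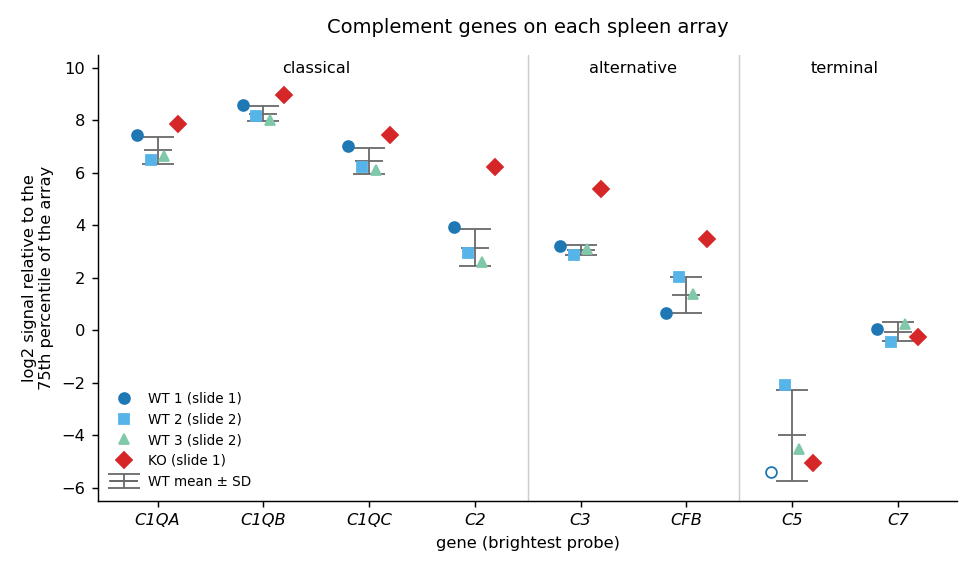
Log2 signal less the 75th percentile of its array (vertical axis) for the brightest probe of each complement gene (horizontal axis), with 1 point for each of 3 WT arrays and 1 KO array; grey bars are the WT mean and SD, and the open circle for C5 marks a spot not well above background. KO lies above all WT arrays for the 6 classical and alternative genes and among them for C5 and C7, and levels of different genes are not comparable because each rests on its own probe.

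C1QA, C1QB and C1QC encode the 3 chains of C1q, the recognition subunit of the classical arm. C1QA was 7.45, 6.48 and 6.66 on WT 1, WT 2 and WT 3 and 7.85 on KO. C1QB was 8.58, 8.16 and 8.03 on the WT arrays and 8.96 on KO. C1QC was 7.01, 6.22 and 6.11 on the WT arrays and 7.44 on KO. For each chain KO was the highest array and WT 1 the next, so the arrays of slide 1 stood above those of slide 2. The differences were 0.99 for C1QA (standard error 0.50; limma, adjusted p = 0.529), 0.71 for C1QB (0.35; limma, adjusted p = 0.525) and 1.00 for C1QC (0.48; limma, adjusted p = 0.518). Within slide 1 they were 0.40, 0.38 and 0.43, less than the gap between the highest and lowest WT array of each chain. C1QA and C1QC kept nearly the same ratio: centred on its WT mean, their log2 ratio within an array was 0.02, -0.16 and 0.14 on the WT arrays and -0.01 on KO. C1QA over C1QB gave 0.27, -0.29 and 0.02 on the WT arrays and 0.28 on KO, just above that range. C1QB over C1QC gave -0.24, 0.13 and 0.11 on the WT arrays and -0.29 on KO, just below it. Against WT 1, KO differed by 0.02 and -0.05 in these ratios.

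C2 encodes the protease that C1s and the lectin proteases cleave, and its large fragment is the enzyme of the classical C3 convertase. Its brighter probe read 3.93, 2.93 and 2.59 on the WT arrays and 6.21 on KO. KO stood apart from every WT array, while WT 1 was 1.17 above the mean of WT 2 and WT 3. KO differed by 3.06 (standard error 0.63), with a 95% interval of 1.29 to 4.82 before adjustment (limma, adjusted p = 0.385), and it was 2.27 within slide 1. The dimmer probe read -0.71, -1.86 and -2.11 on the WT arrays and 1.73 on KO, a difference of 3.29 (limma, adjusted p = 0.380). Both probes ordered the 4 arrays alike. C2 was higher by more than the C1q chains: its ratio to their mean, centred on WT, was 0.29, 0.02 and -0.31 on the WT arrays and 2.16 on KO.

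C3 encodes the central component, whose cleavage yields the opsonin C3b and the anaphylatoxin C3a. Its brightest probe read 3.22, 2.87 and 3.10 on the WT arrays and 5.40 on KO. The WT arrays lay close together, with an SD of 0.17 against a median of 0.33 over all tested probes, and on this probe WT 1 was not set apart from the slide 2 arrays. KO differed by 2.34 (standard error 0.30), with a 95% interval of 1.51 to 3.17 before adjustment (limma, adjusted p = 0.303). C3 had 5 probes, which gave differences from 2.27 to 2.57 and from 2.16 to 2.23 within slide 1, and KO was above all WT arrays on each of the 5. The ratio of C3 to the mean of the C1q chains, centred on WT, was -0.34, 0.05 and 0.29 on the WT arrays and 1.44 on KO.

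CFB encodes factor B, the protease of the alternative convertases. Its single probe read 0.66, 2.02 and 1.39 on the WT arrays and 3.47 on KO. Here WT 1 was the lowest array, 1.05 below the mean of WT 2 and WT 3, which is the reverse of its place for C2 and the C1q chains. KO differed by 2.11 (standard error 0.62; limma, adjusted p = 0.425), and within slide 1 it was larger, at 2.82. CFB and C2 are neighbours in the genome and related in sequence, and both were highest on KO, but WT 1 was the highest WT array for C2 and the lowest for CFB. Their log2 ratio, C2 over CFB and centred on WT, was 1.48, -0.89 and -0.60 on the WT arrays, and KO at 0.94 lay within that range. The ratio of C3 to CFB on KO was also within the WT range, at 0.23. Within slide 1, 3 of the 8 genes were at least 2-fold higher on KO than on WT 1, again C2, C3 and CFB, against 7.94% of all tested probes.

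**Figure D2:**
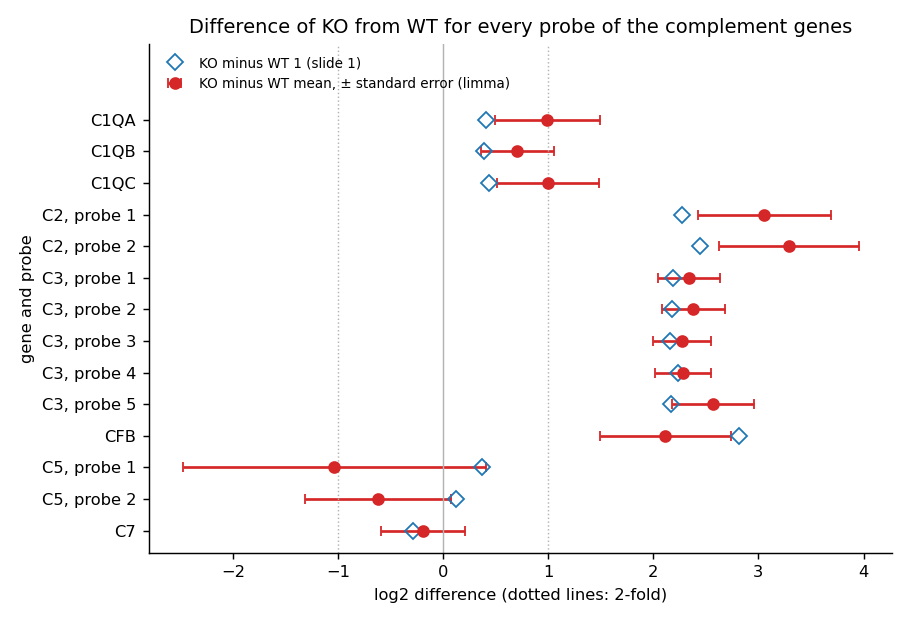
Log2 difference of KO from WT (horizontal axis) for each of the 14 probes (vertical axis); red points are KO minus the WT mean with the limma standard error, open diamonds are KO minus WT 1 on slide 1, and dotted lines mark 2-fold. The 8 probes of C2, C3 and CFB lie beyond the upper dotted line by both measures, the C1q probes move to about 0.4 within slide 1, and the C5 probes change sign.

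C5 encodes the component whose cleavage releases C5a and starts pore assembly. It was dim, and its brighter probe was not well above background on WT 1. That probe read -5.42, -2.09 and -4.53 on the WT arrays and -5.05 on KO. WT 2 stood 2.44 above the next array and the other arrays lay close together. The difference of -1.04 (standard error 1.44) was within the WT range (limma, adjusted p = 0.783). Its size rested on WT 2: without that array the difference was -0.073, and within slide 1 it was 0.37. The dimmer probe gave -5.44, -3.88 and -4.78 on the WT arrays and -5.32 on KO, again highest on WT 2.

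C7 encodes the component that anchors the growing pore in the membrane. It read 0.04, -0.46 and 0.25 on the WT arrays and -0.24 on KO, and KO lay among the WT arrays. KO differed by -0.19 (standard error 0.40; limma, adjusted p = 0.861). Within slide 1 it was -0.29, and the 95% interval before adjustment ran from -1.31 to 0.93. The ratio of C3 to C7, centred on WT, was 2.53 on KO, where its SD over the WT arrays was 0.25.

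Read by arm, the median difference was 0.99 over the 4 classical genes, 2.23 over the 2 alternative genes and -0.61 over the 2 terminal genes, against -0.11 over all tested probes and 0.12 over the brightest 25%. Within slide 1 these medians were 0.42, 2.50 and 0.04, against -0.03 over all tested probes. The classical median rests on the C1q chains, since C2 alone of that arm was beyond 2-fold.

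The rest of the pathway was read from a list of 47 further complement genes, of which 27 had a named probe and were tested. A receptor, an early protease and soluble regulators were the genes beyond 2-fold upward. These were C5AR1, C1S, SERPING1 and CLU, and those beyond 2-fold downward were C8G, C9, MBL1 and MBL2. That is 4 of 27 in each direction, where 7.35% of all tested probes were beyond 2-fold upward and 11.6% downward. The count downward was 0 after quantile normalisation or the median shift. C9, MBL1 and MBL2 entered the test through WT 2 alone. Their KO signal was not well above background, so their KO values are only bounds. Over the 21 genes well above background on all 4 arrays, 4 were beyond 2-fold upward and 1 downward. Limma called 0 of the 27. At an unadjusted limma p under 0.05, 3 were higher in KO and 0 lower, where 5.33% of all tested probes were higher and 5.95% lower. The median difference over the list was -0.06, 0.0068 after quantile normalisation and 0.27 within slide 1.

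C1S encodes the protease of C1 that cleaves C4 and C2. It read 3.84, 2.70 and 3.52 on the WT arrays and 5.14 on KO, a difference of 1.79 (standard error 0.55; limma, adjusted p = 0.428) and of 1.30 within slide 1. SERPING1 encodes C1 inhibitor, which blocks C1r, C1s and the lectin proteases. It read 5.32, 4.98 and 4.87 on the WT arrays and 6.49 on KO, a difference of 1.43 (0.32; limma, adjusted p = 0.393) and of 1.17 within slide 1. For both genes KO was the highest array on every probe, with differences of 1.79 and 2.38 for C1S and of 1.43 to 1.98 over the 3 probes of SERPING1. The protease gene and the inhibitor gene of C1 were therefore both above the WT range on KO. C4A, the substrate of C1s, had a difference of 0.91, and 0.32 within slide 1, on its brightest probe. Its 3 probes ranged from 0.91 to 1.22, and from 0.32 to 0.65 within slide 1, with KO above all WT arrays on each. MASP1 and MASP2, the lectin arm proteases, had differences of -0.28 and -0.99, and of 0.16 and -0.54 within slide 1. KO was below all WT arrays on both probes of MASP2, and the dimmer one differed by -0.80. The dimmer probe of MASP1, not well above background on WT 3, differed by 0.56.

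C5AR1 encodes the receptor for C5a on myeloid cells. It read 3.93, 2.64 and 2.37 on the WT arrays and 6.05 on KO, a difference of 3.07 (standard error 0.74; limma, adjusted p = 0.400) and of 2.12 within slide 1. KO was highest on both probes, and the ligand gene C5 was dim and within the WT range on the same array. ITGB2, the beta chain of complement receptors 3 and 4, had a difference of 0.91, and of 0.70 within slide 1. VSIG4, a macrophage receptor for C3b and iC3b, was singled out after its values were seen, because its 5 probes disagreed. The brightest read -0.88, 7.21 and 6.37 on the WT arrays and 4.64 on KO, so KO lay within the WT range. On the other 4 probes KO was above all WT arrays, with differences of 4.35 to 5.36 and of 4.25 to 4.79 within slide 1.

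Among the regulators, CLU, a fluid-phase inhibitor of the pore, read 4.75, 3.66 and 4.32 on the WT arrays and 5.39 on KO, a difference of 1.14 (limma, adjusted p = 0.501) that was 0.63 within slide 1. The membrane regulators CD46, CD55 and CD59, which protect host cells, had differences of -0.70, -0.28 and 0.09. Within slide 1, CD46 differed by -1.60 and CD59 by 0.59, and CD55 read 2.23 on both arrays. The dimmer probe of CD55 differed by -1.08, with KO below all WT arrays, and by -0.38 within slide 1. C4BPA, an inhibitor of the classical convertase, had a difference of 0.10, and of -0.30 within slide 1, on its brightest probe. Its 5 probes ranged from 0.10 to 1.06, and from -0.30 to 0.81 within slide 1. KO was above all WT arrays on 1 of them. No regulator was called by limma.

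**Figure D3:**
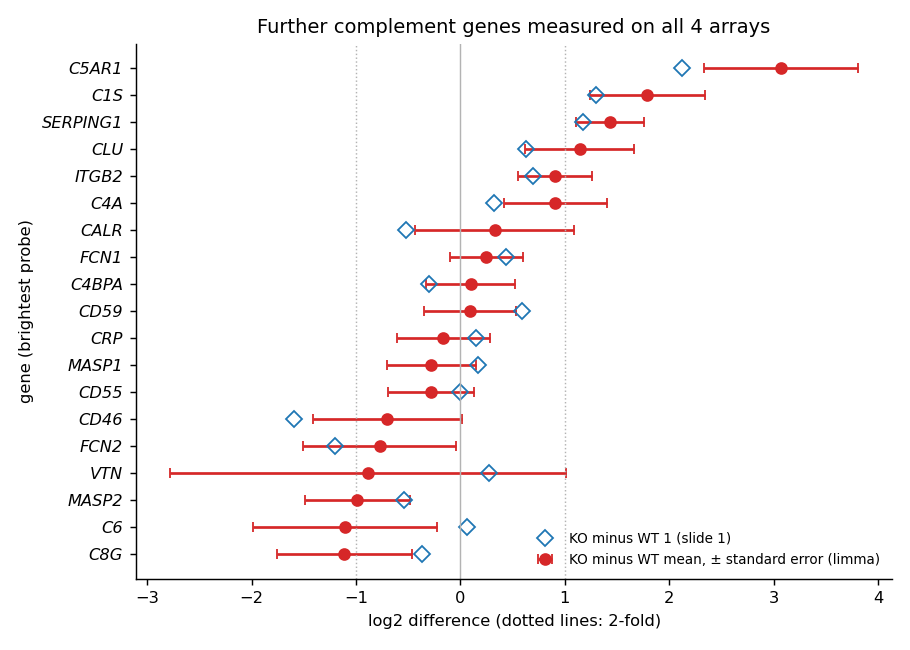
Log2 difference of KO from WT (horizontal axis) for the brightest probe of further complement genes measured on all 4 arrays (vertical axis), as KO minus the WT mean with the limma standard error (red) and KO minus WT 1 on slide 1 (open diamonds); VSIG4 is left out because its probes disagreed. C5AR1, C1S, SERPING1 and CLU lie above the upper 2-fold line by KO minus the WT mean, and CLU lies under it within slide 1.

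Several genes of late components and soluble recognition proteins were highest on 1 WT array, WT 2. C8A, C8B, C9, MBL1 and MBL2 were well above background on WT 2 only, and entered the test through that array alone. C8A stood 4.36 above the next array on WT 2, C8B 2.53, C9 2.40, MBL1 2.45, MBL2 3.57 and VTN, which encodes the pore inhibitor vitronectin, 3.51. WT 2 was the highest array at 13 of the 27 genes, by at least 2-fold at 6. Over all tested probes it was highest at 20.3% and by at least 2-fold at 1.78%. Both counts for the 27 genes include the genes that entered through WT 2 alone. For those genes a high WT 2 was largely set by the filter, so the counts do not test a pattern of late components. The ficolin genes FCN1 and FCN2, also of the recognition proteins, were highest on WT 3, with differences of 0.25 and -0.77, and of 0.44 and -1.20 within slide 1. C8G, the late component measured on every array for which KO was beyond 2-fold downward, read -2.86, -1.43 and -2.06 on the WT arrays and -3.23 on KO, a difference of -1.11 (limma, adjusted p = 0.567) and of -0.37 within slide 1. C6 had a difference of -1.11 with KO inside the WT range, and of 0.058 within slide 1.

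WT 2 also carried most of the signal of the hepatocyte list. Of its 9 genes 6 were tested, and 5 were highest on WT 2, each by at least 2-fold over the next array. The median difference of the list was 0.34, and 3.70 within slide 1. The summed level of the list was 7.99, 35.7 and 12.8 times the 75th percentile on WT 1, WT 2 and WT 3 and 3.87 times on KO. APOA1, the brightest of the list on WT 1, WT 3 and KO, weighs most in the sums of those arrays. It read 2.80, 3.44 and 3.62 on the WT arrays and 1.45 on KO. Its difference was -1.84, beyond 2-fold downward, and -1.35 within slide 1. ALB, serum albumin, read -6.42, 2.60 and -5.05 on the WT arrays and -1.64 on KO. TTR, transthyretin, read -7.78, 2.37 and -6.20 on the WT arrays and -3.77 on KO. Their part in the values of C5 and the other late components was not tested.

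**Figure D4:**
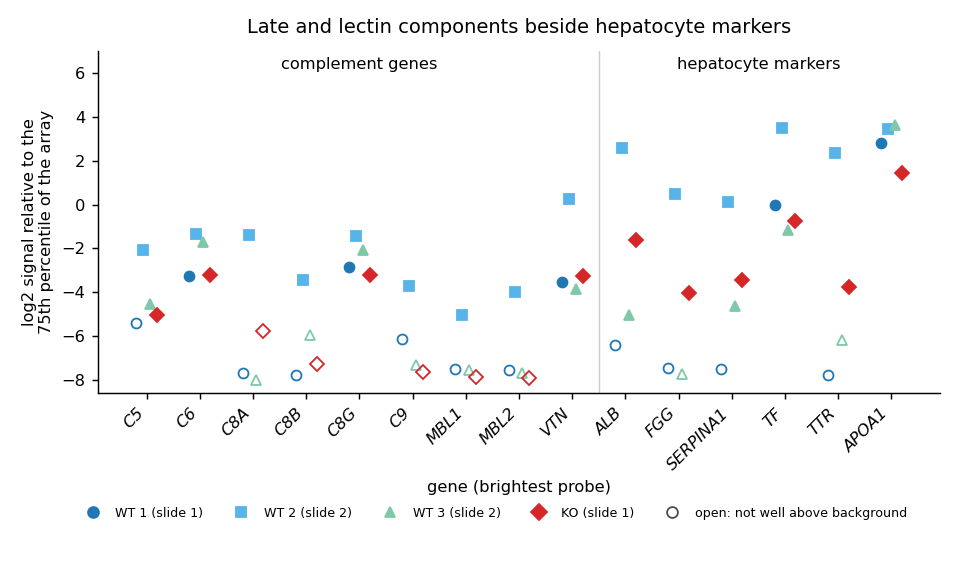
Log2 signal less the 75th percentile of its array (vertical axis) on each of the 4 arrays for 9 complement genes and 6 hepatocyte markers (horizontal axis, brightest probe), where open symbols mark spots not well above background. WT 2 is the highest array at every gene shown except APOA1, where WT 3 is at 3.62 and WT 2 at 3.44. The genes shown are a choice, and C8A, C8B, C9, MBL1 and MBL2 passed the filter through WT 2 alone. C7, FCN1, FCN2 and MASP2, highest on WT 3, are not shown, nor is MASP1, highest on WT 2.

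Each tested macrophage marker and interferon response gene was higher in KO than the WT mean. Each tested B cell marker was lower, and every other list with more than 1 tested gene was mixed. Of 14 macrophage markers 8 were tested, and KO was beyond 2-fold upward at 6, with a median difference of 3.13 over the 8, and of 2.47 within slide 1. LYZ (lysozyme) differed by 3.99, FCGR1A (a receptor for antibody) by 3.89 and MRC1 (the mannose receptor) by 3.25. The summed level of these markers was 106, 119 and 93.4 on the WT arrays and 417 on KO. The part of macrophage number in the values of C1q, C2, C3 and CFB was not tested.

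Of 12 interferon response genes 11 were tested, and KO was beyond 2-fold upward at 10, with a median difference of 2.85, and of 1.50 within slide 1. CXCL9, CXCL11 and CXCL10, chemokines induced by interferon, differed by 5.44, 5.33 and 4.21. The summed level of the list was 457, 187 and 76.6 on the WT arrays and 1132 on KO, so the arrays stood in the order KO, WT 1, WT 2 and WT 3. Both probes of C2, the probes of C1QB and C1QC and 3 of the 5 probes of C3 had this order, and those of C1QA and CFB did not. The share of all tested probes with this order was not counted, and KO and WT 1 shared a slide, so the order by itself links no genes. The part of interferon response was not tested. Of 4 acute phase genes, 1 was beyond 2-fold upward, SAA3 with a difference of 9.62, and 1 downward, LBP. LBP was well above background on WT 2 and WT 3 only, so its KO value is only a bound. The median over the 4 genes was -0.20, and 1.49 within slide 1.

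The stroma list (3 genes tested) had a median difference of 0.45, and of 0.32 within slide 1, and a summed level of 22.6 to 30.9 on the WT arrays and 40.7 on KO. The adipocyte list (4 tested) had a median of -0.21, and of 0.21 within slide 1. In the B cell list KO was beyond 2-fold downward at each of the 3 tested genes, of which limma called 0, with a median difference of -4.45, and of -4.75 within slide 1, and a summed level of 2.84 to 5.44 on the WT arrays and 0.17 on KO. The T cell (6 tested), NK (3 tested) and granulocyte (4 tested) lists had median differences of 0.91, 0.81 and 0.14. Within slide 1 these were 0.18, -0.65 and 3.19, so the sign turned for the NK list and the granulocyte list stood far above WT 1. The 1 dendritic gene tested, XCR1, differed by -0.39, and by -0.09 within slide 1. The part of these cells in the complement values was not tested.

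For each gene, the 3 named genes with the most similar profile over the 4 arrays were found among 2407 genes measured on all arrays, as the smallest root mean square distance of values centred on their mean. For C2 they were CASP1 at 0.09, IL27 at 0.14 and CD274 at 0.17. For C3 they were VCAN at 0.04, CCL2 at 0.07 and IL10RB at 0.13. CFB had no profile as near, with DPPA5 at 0.23 the nearest. The C1q chains were nearest to CFLAR (C1QA), MAPRE1 (C1QB) and ACTR2 (C1QC), at 0.02 to 0.04. C5 was nearest to F10, ITIH2 and SERPINC1, genes of plasma proteins from the liver, all highest on WT 2. C7 was nearest to SLC22A6, at 0.05. With 4 arrays such distances are a description only.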

How the data were processed

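Total RNA of spleen was labelled with Cy3 and hybridised by the authors to Agilent porcine arrays, 1 sample on each, per the labels. File headers list 1 channel, although a pair of dyes is named in the methods. The deposited intensity is the processed signal of Feature Extraction 11.0.1.1 (submitters' processing notes), after background correction and with no scaling between arrays. The deposited log2 table holds 27421 probes, whose sorted columns differ by at most 0.00154, and was an alternative.

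Outlier spots were left out, which removed 28 probes. The log2 signal minus the 75th percentile of the array was averaged over spots of a probe, and probes well above background on at least 1 array were tested. Symbols came from transcript accessions, matched without versions to RefSeq (Sscrofa11.1), for 6686 of 43603 probes (15.3%). A gene was read by its brightest probe. Limma 3.58.1 in R 4.3.3 (lmFit, eBayes, two-sided) had 2 residual and 1.93 prior degrees of freedom, and the call was an adjusted p (Benjamini-Hochberg) under 0.05 with a 2-fold difference. The script was tested on simulated data. Slide and scan date coincided and make 1 batch. The number of arrays limits the precision.

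Members and lists were chosen with earlier results of these data known. Named were all members, the targeted gene, further complement genes measured on all 4 arrays and beyond 2-fold (KO past every WT array and at least 2-fold from the WT mean) together with the lowest and highest of the rest, at most 3 genes of a marker list and the 3 nearest profiles of a member. Other complement genes were named after their values were seen. A further gene of the wider list is counted but not reported here by itself. Alternatives covered background correction, scaling, filter, probe choice, slide, left-out arrays and the methods' t-test. In normexp the median spot signal replaced the mean signal. Comparisons of proteins and promoters were planned and not run, since no sequences were used here. Python 3.11.15, pandas 2.3.3, numpy 2.4.6, scipy 1.17.1 and matplotlib 3.10.9 were used.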

Additional observations from a re-analysis of the deposited data

How the results depend on the processing

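C1QA, C1QB, C1QC, C2, C3 and CFB stayed higher in KO under every alternative run, with ranges of 0.40 to 1.28, 0.38 to 0.95, 0.43 to 1.28, 2.27 to 3.45, 2.09 to 2.59 and 1.76 to 2.82, and no alternative of limma called any of the 8 genes. For C2 and C3 the adjusted p was lowest without WT 1, where the differences were 3.45 and 2.42. That setting leaves KO alone on slide 1 against WT 2 and WT 3 on slide 2, so KO and slide cannot be told apart there. The methods' t-test, unadjusted, called 1 of the 8 and 1333 of all tested probes, and 0 after adjustment, while limma called 6 probes with a variance trend and 4 after normexp. With the slide as a block, the medians were 0.42 (classical), 2.50 (alternative) and 0.042 (terminal, which changed sign), and C5 turned to 0.37. C7 turned to 0.058 under the median shift. Of the 8 genes, those above the WT range and at least 2-fold from the WT mean numbered 5 under the median shift and 3 to 5 with 1 WT array left out (5 without WT 1), and those below it 0 to 1 (1 without WT 1). In the wider list the count above was 7 under the median shift and 4 to 7 with 1 WT array left out (7 without WT 1). The count below was 0 in the deposited table, after the median shift, normexp or quantile normalisation, 1 over probes measured on all arrays and 3 to 8 with 1 WT array left out (8 without WT 1). The share of all tested probes beyond 2-fold was not counted under these alternatives. A change in these counts, for the 8 genes or the wider list, is therefore not a result about complement. The median of that list changed sign to 0.088 in the deposited table, 0.094 with the mean of the probes, 0.19 under the median shift, 0.038 after normexp, 0.099 over probes measured on all arrays, 0.0068 after quantile normalisation and 0.27 with the slide as a block, and ranged from -0.32 to 0.18 with 1 WT array left out (-0.32 without WT 1, 0.18 without WT 2). Their causes were not tested. C5 had no value in the deposited table or over probes measured on all arrays, so no terminal median was taken there. The count of probes at an unadjusted limma p under 0.05 was 3775, and 10757 without WT 1, 1511 without WT 2 and 1822 without WT 3. Reading VSIG4 by its next brightest probe, chosen after seeing the data, gave a difference of 5.36 in place of 0.41. No paired analysis was possible because the KO title carries no replicate number and there is 1 KO array.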
